A study of Mus musculus with 6 samples.

Results

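The genes described here are 10 cytokines of helper T cells, Il2, Il3, Il4, Il5, Il9, Il10, Il13, Il17a, Il21 and Il22, taken by name from the 248 endogenous genes of an nCounter mouse inflammation panel, which counts RNA molecules through barcoded probes without amplification. The samples are full-thickness skin from the backs of SKH-1 mice, a hairless strain. In the UV plus BMS-202 group (n = 3) a topical solution of BMS-202, a small-molecule blocker of PD-L1, was applied (8 mM, 200 µl), and in the UV group (n = 3) the acetone vehicle was. Application took place 3 times in both groups, at 24 h and 1 h ahead of irradiation and immediately afterwards. All 6 samples come from skin given solar simulated light, with a UVA dose of 90 kJ/m2 and a UVB dose of 6 kJ/m2, and collected 24 h later. Skin without irradiation was not analysed here, so no value says how a gene stood before exposure, and bulk RNA cannot tell a change in the number of cells from a change in RNA per cell.

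Helper T cells are sorted by the cytokines they release after their receptor meets antigen: Th1 cells act on macrophages, Th2 cells on eosinophils, mast cells and epithelium, Th17 cells on neutrophils and epithelium, follicular helper cells on B cells, while regulatory cells restrain the others. PD-L1 on tissue and myeloid cells binds PD-1 on activated T cells and dampens their signalling, including cytokine release. In skin, type 2 cytokines are known from allergic inflammation, IL-17 and IL-22 from psoriasis, and IL-10 from the immune suppression that follows UV exposure. T cell activation reaches these genes largely through NFAT, a transcription factor whose core motif is GGAAA, and AP-1, which binds TGANTCA.

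The promoters of 4 members are shown because they set a gene that was well above background with BMS-202 (Il21), a pair of neighbours close to background (Il4 and Il13) and a gene of the same chromosomal cluster that was not detected (Il5) side by side. In RefSeq no protein-coding gene lies between Il4 and Il13, and only Rad50 lies between Il13 and Il5. The windows run from 250 bases before to 50 bases after the start site on GRCm38.p6 and are printed in the gene's direction, with capitals marking GGAAA or its reverse complement. They lie at chr3:37232587-37232886 (Il21), chr11:53618616-53618915 (Il4, the upstream one of its 2 listed starts), chr11:53634653-53634952 (Il13), all on the minus strand, and chr11:53720544-53720843 (Il5), on the plus strand.
Il21: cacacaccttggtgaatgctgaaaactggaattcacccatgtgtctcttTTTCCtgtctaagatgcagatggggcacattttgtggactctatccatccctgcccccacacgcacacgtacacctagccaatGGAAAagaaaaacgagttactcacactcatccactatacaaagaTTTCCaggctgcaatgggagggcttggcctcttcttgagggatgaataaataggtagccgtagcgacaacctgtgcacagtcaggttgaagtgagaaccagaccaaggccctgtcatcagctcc
Il4: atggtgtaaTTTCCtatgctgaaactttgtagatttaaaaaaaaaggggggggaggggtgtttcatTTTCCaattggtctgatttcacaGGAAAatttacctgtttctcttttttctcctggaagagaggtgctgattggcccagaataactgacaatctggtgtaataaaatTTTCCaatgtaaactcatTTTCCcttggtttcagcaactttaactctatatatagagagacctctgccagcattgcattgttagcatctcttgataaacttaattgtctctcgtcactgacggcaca
Il13: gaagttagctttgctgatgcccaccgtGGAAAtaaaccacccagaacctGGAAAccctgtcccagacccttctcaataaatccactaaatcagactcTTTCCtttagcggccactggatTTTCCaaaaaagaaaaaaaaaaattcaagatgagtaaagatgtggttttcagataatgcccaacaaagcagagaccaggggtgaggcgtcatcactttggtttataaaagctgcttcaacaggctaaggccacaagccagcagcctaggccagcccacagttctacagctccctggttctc
Il5: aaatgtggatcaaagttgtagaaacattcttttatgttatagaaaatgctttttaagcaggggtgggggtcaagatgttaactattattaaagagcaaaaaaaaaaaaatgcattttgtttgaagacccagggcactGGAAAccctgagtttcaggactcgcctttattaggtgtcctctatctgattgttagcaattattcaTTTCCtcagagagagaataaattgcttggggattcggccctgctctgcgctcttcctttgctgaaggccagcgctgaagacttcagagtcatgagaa

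The RefSeq table held windows for 9 of the 10 members, with 10 windows in all, and Il10 had no entry. Counting GGAAA on both strands, the windows above held 3 matches for Il21, 5 for Il4, 4 for Il13 and 2 for Il5, while the window at the other Il4 start held 1. At least 1 match occurred in 9 of the 10 member windows, against 61.3% of all 32851 windows of the same length, and the window without a match was that of Il17a. TGANTCA was found in 2 windows, those of Il9 and Il17a, against 7.81% of all windows, and GATAA, the core of GATA factor sites, in 4 windows (Il3, Il4, Il13 and Il22), against 25.4%. These are letters in a short window and say nothing about binding.

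The deposited gene values are counts multiplied by 1 factor per sample so that Gapdh reads 6417 everywhere, and any value below 20 is written as 20. Gene counts above the floor totalled 41537 to 45040 per UV plus BMS-202 sample and 142900 to 160891 per UV sample. The floor of 20 stood for 16.5 to 18.3 counts with BMS-202 and 21.6 to 23.8 counts with UV alone. The 8 negative control probes, which match no mouse transcript, averaged 17.4 to 18.5 counts per UV plus BMS-202 sample and 11.0 to 13.9 counts per UV sample. The detection limit, the mean plus 2 SD of the negative controls of a sample, was 34.5 to 37.9 counts with BMS-202 and 26.4 to 31.7 counts with UV. Relative to Gapdh, the 5 other housekeeping genes had log2 differences of -3.39 to -1.22 (UV plus BMS-202 minus UV), so the directions given here hold relative to Gapdh unless another scaling is named.

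With BMS-202, 19 of the 30 values of the 10 T helper cytokine genes exceeded the detection limit and 7 were at 20. In UV skin all 30 values were listed at 20, and none of the genes was measurable there. By class, 3 of 9 Th2 values were at the floor with BMS-202 (those of Il5), against 9 of 9 in UV skin, and 3 of 6 Th17 values with BMS-202 (those of Il22), against 6 of 6 in UV skin. For Il2 (Th1 and T cell growth), Il9 (Th9), Il21 (follicular helper) and Il10 (regulatory), 0 of 3 values per gene were at the floor with BMS-202, against 3 of 3 in UV skin. Il3, made by several classes, had 1 of 3 at the floor with BMS-202, against 3 of 3 in UV skin. Because a floor value cannot fall further, these genes could differ in 1 direction only.

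In a limma fit of log2(value + 1) over all 248 endogenous genes, with the Benjamini-Hochberg adjusted p called at 0.05, 7 of the 10 members were called higher with BMS-202 and none lower, beside 36.7% of all endogenous genes called higher. Il3, Il5 and Il22 were not called. The median log2 difference was 1.30 over the members and -0.48 over all genes. In UV skin 45 genes were at the floor in every sample. Of the 35 among them that are no members, 31 (88.6%) were above it in all 3 UV plus BMS-202 samples, and of the 10 members 7 (70%) were, so the members' share lies below that of the other genes at the floor. Calls followed the level in UV skin over the whole panel. Of 63 genes with a UV mean above 20 and up to 100, 47 were called higher and 8 lower, whereas of 114 with a UV mean above 100 and up to 1000, 6 were higher and 98 lower, and of 26 above 1000 none was higher and 26 were lower.

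**Figure D1:**
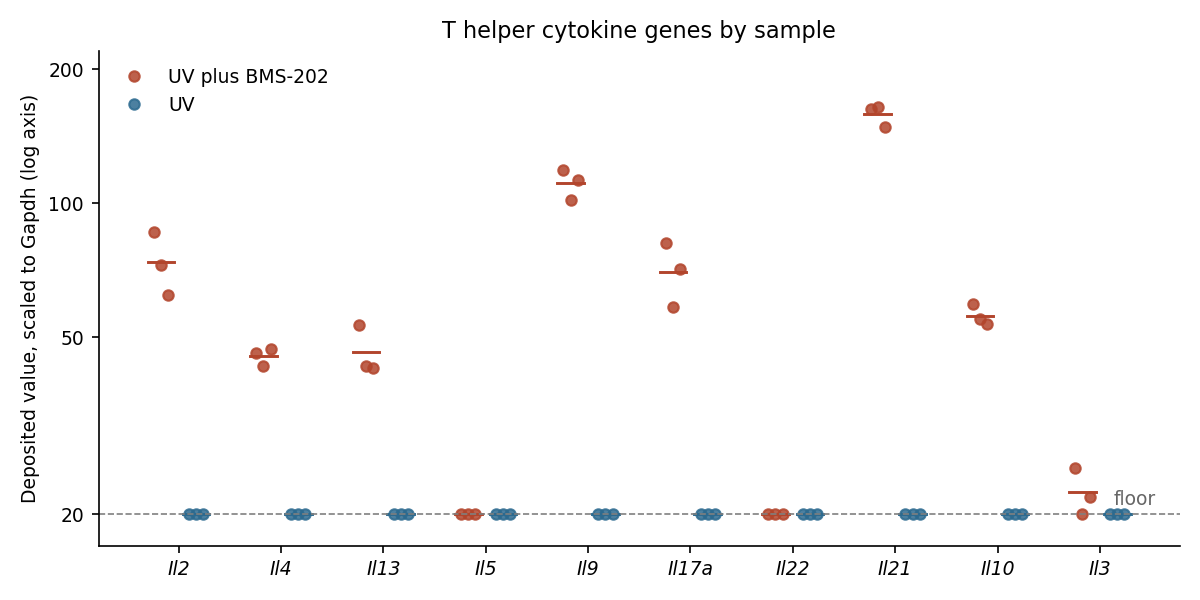
Deposited values of the 10 genes in each sample on a log axis, UV plus BMS-202 to the left of UV for each gene; points are samples, bars are means (n = 3) and the dashed line is the floor of 20. All UV points sit at 20, while with BMS-202 Il21 lies between 148.5 and 165 and Il5 and Il22 stay at 20.

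Il2, the growth factor that activated T cells make for themselves and that regulatory T cells depend on, read 86.0, 72.8 and 62.3 with BMS-202 and 20 in each UV sample. The groups did not overlap. Its mean of 73.7 ± 11.9 (SD, n = 3) was at least 3.68-fold the UV value (log2 difference 1.82 ± 0.12 SE, limma adjusted p = 1.10e-05). The unscaled counts of 71, 61 and 57 all lay above the detection limits of their samples, and their 95% Poisson intervals, which cover counting error only, overlapped one another.

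Among the Th2 genes, Il4, which drives helper cells to the Th2 fate and B cells to make IgE, read 46.0, 43.0 and 47.0 with BMS-202 and 20 in each UV sample. The groups were apart, but the counts of 38, 36 and 43 lay close to the detection limit, and the sample with 36 counts (limit 37.9) was below it. Il4 averaged 45.3 ± 2.09 (SD, n = 3) with BMS-202, at least 2.27-fold the UV value (log2 1.14 ± 0.04 SE, limma adjusted p = 4.68e-07).

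Il13, which acts on epithelium and macrophages through a receptor it shares with IL-4, read 53.3, 43.0 and 42.6 with BMS-202 and 20 in each UV sample. Its counts were 44, 36 and 39, and the same sample as for Il4 was under the limit. The mean of 46.3 ± 6.09 (SD, n = 3) was at least 2.31-fold the UV value (log2 1.16 ± 0.09 SE, limma adjusted p = 2.75e-05). Il5, the growth and survival factor of eosinophils, was listed at 20 in all 6 samples. The type 2 genes were therefore split, with a pair just around the detection limit and 1 gene not detected in any sample.

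Background moved the Il4 and Il13 results. With each sample's mean negative control count subtracted, their means with BMS-202 were 24.5 and 25.4, at least 1.22-fold and 1.27-fold the floor, and Il13 was no longer called (limma adjusted p = 0.117), while Il4 was (adjusted p = 0.0186). With every value below the highest scaled detection limit, 45.3, raised to it, neither was called (Il4 adjusted p = 0.133, Il13 adjusted p = 0.338). All 3 Il4 counts lay below a stricter limit, the mean plus 3 SD of the negative controls.

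Il9, a mast cell growth factor made by Th9 cells, read 119, 101 and 112 with BMS-202 and 20 in each UV sample. Every UV plus BMS-202 value was above every UV value. The mean was 111 ± 8.76 (SD, n = 3), at least 5.54-fold the UV value (log2 2.41 ± 0.07 SE, limma adjusted p = 2.91e-07). Its counts of 98, 85 and 103 were all above the limits, and a mean of 90.0 remained with the negative control mean subtracted.

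Of the Th17 pair, Il17a, which makes keratinocytes release neutrophil chemokines, read 81.2, 58.5 and 71.0 with BMS-202 and 20 in each UV sample. The groups were separate and the counts of 67, 49 and 65 were above the limits. The mean of 70.2 ± 11.4 (SD, n = 3) was at least 3.51-fold the UV value (log2 1.75 ± 0.12 SE, limma adjusted p = 1.42e-05). Il22, which acts on keratinocytes and is often released with IL-17, was listed at 20 in all 6 samples. Il22ra2, the gene of the soluble IL-22 binding protein, was also at 20 throughout.

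Il21, the follicular helper cytokine that supports B cell responses, had the largest difference of the members. It read 162, 165 and 148.5 with BMS-202 and 20 in each UV sample. The mean of 159 ± 8.72 (SD, n = 3) was at least 7.93-fold the UV value (log2 2.92 ± 0.07 SE, limma adjusted p = 1.23e-07). Its counts of 134, 138 and 136 were well above limits of 34.5, 37.9 and 35.1, with 95% Poisson intervals between 112 and 163. Without scaling, these counts were at least 5.70-fold the 23.8 counts that the floor can hide in UV skin. Il2 and Il21 are neighbours on chromosome 3, with no protein-coding gene between them in RefSeq.

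Il10, the cytokine of regulatory T cells and of several myeloid cells that limits inflammation, read 59.4, 54.9 and 53.5 with BMS-202 and 20 in each UV sample. The counts of 49, 46 and 49 passed the limit in all 3 samples, and under the mean plus 3 SD limit 1 of the 3 did not. The mean was 55.9 ± 3.06 (SD, n = 3), at least 2.80-fold the UV value (log2 1.44 ± 0.04 SE, limma adjusted p = 3.55e-07). With the negative control mean subtracted it was 35.1, at least 1.75-fold the floor, at which the UV values were kept, and Il10 was still called (limma adjusted p = 5.73e-05).

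Il3, a growth factor of mast cells and basophils, read 25.4, 20 and 21.8 with BMS-202 and 20 in each UV sample, and the groups overlapped (log2 0.15 ± 0.08 SE, limma adjusted p = 0.122). The 2 counts above the floor, 21 and 20, lay within the range of the negative controls. Leaving out the UV plus BMS-202 sample at the floor gave an adjusted p of 0.0220 for Il3, on counts that remain under the detection limit.

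**Figure D2:**
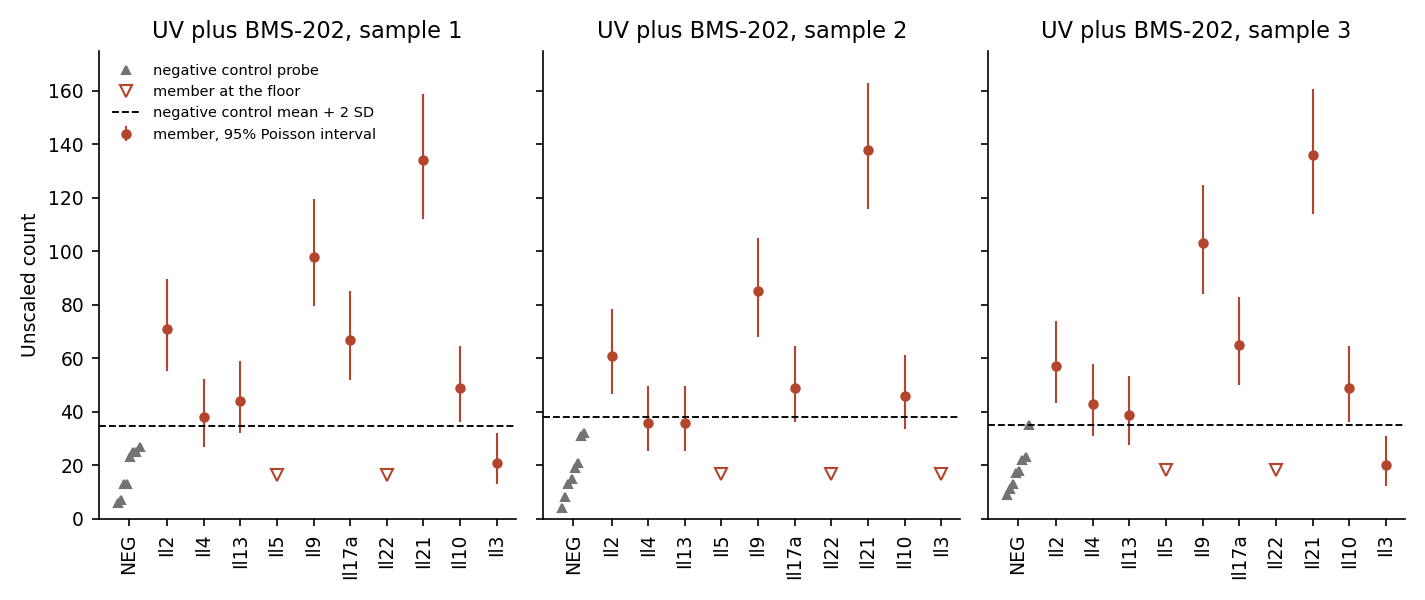
Unscaled counts of the 10 genes in each UV plus BMS-202 sample with 95% Poisson intervals, beside the 8 negative control probes (triangles) and their mean + 2 SD (dashed line); open triangles mark genes at the floor, drawn at the count that the floor stands for. Il21, Il9, Il2, Il17a and Il10 lie above the line in all 3 samples, Il4 and Il13 in 2 of 3.

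The floor leaves UV values no spread, so these standard errors and adjusted p-values rest on the spread of the 3 UV plus BMS-202 samples and on the spread of the other panel genes, towards which limma draws each gene's own. An exact two-sided permutation test on 3 against 3 samples cannot give a p below 0.1, and Il2, Il4, Il9, Il10, Il13, Il17a and Il21 all reached that value. The labels give 3 mice per group without tying samples to mice, so the spread may be technical.

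The control probes of the assay also read higher with BMS-202 at low counts. The negative controls averaged 17.9 counts with BMS-202 and 12.7 with UV, a ratio of 1.41. POS_F, the weakest positive spike-in, averaged 133 counts with BMS-202 and 85.3 with UV, a ratio of 1.56. POS_E, the next weakest, averaged 217 counts with BMS-202 and 204 with UV, a ratio of 1.06. Given the same scaling and floor as the genes, 11 of 24 negative control values exceeded 20 with BMS-202 and 3 of 24 with UV, and the log2 differences of the 8 probes ran from 0 to 0.51. In 2 of the 8 probes, NEG_A and NEG_G, every UV plus BMS-202 value lay above every UV value, as it did for the 7 members. The highest mean of a negative control probe treated this way was 32.0 with BMS-202, below the means of the 7 members called higher. The part of background and of spike-in response in the members' differences was not tested.

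The 7 genes were called higher under the deposited scaling and under all 6 others that were run. Il21 had log2 differences of 2.92 with the 6 housekeeping genes, 2.50 with the positive spike-ins, 2.46 with unscaled counts and 3.24 with quantile normalization. With quantile normalization the log2 differences were 0.87 for Il2, 0.74 for Il17a, 0.36 for Il10, 0.23 for Il13 and 0.21 for Il4. The median over the 10 members, 1.30 as deposited, was 0.29 with quantile normalization, 0.88 with the spike-ins and 0.84 with unscaled counts. The lower bounds of the folds also depended on the scaling. From Il4 to Il21 they ran from 2.27 to 7.93 as deposited, 1.68 to 5.85 with the spike-ins and 1.64 to 5.70 with unscaled counts. For Il2 they were 3.68, 2.72 and 2.64. With the floor raised to the negative control limit, Il21 had 1.78, Il9 1.27, Il2 0.68, Il17a 0.61 and Il10 0.30, and these 5 were still called. Over all endogenous genes 91 were called higher and 132 lower as deposited. The split became 184 higher and 34 lower with the 6 housekeeping genes, and 202 higher and 15 lower without Gapdh among them. The median of all genes stood at 1.29 and 1.48 with these scalings, at -0.15 with the panel median, 0.017 with quantile normalization, -0.85 with the spike-ins and -0.88 with unscaled counts. Rescaling to housekeeping genes or to the panel median carries the floor along and so hardly moves a gene whose UV values are all at it.

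**Figure D3:**
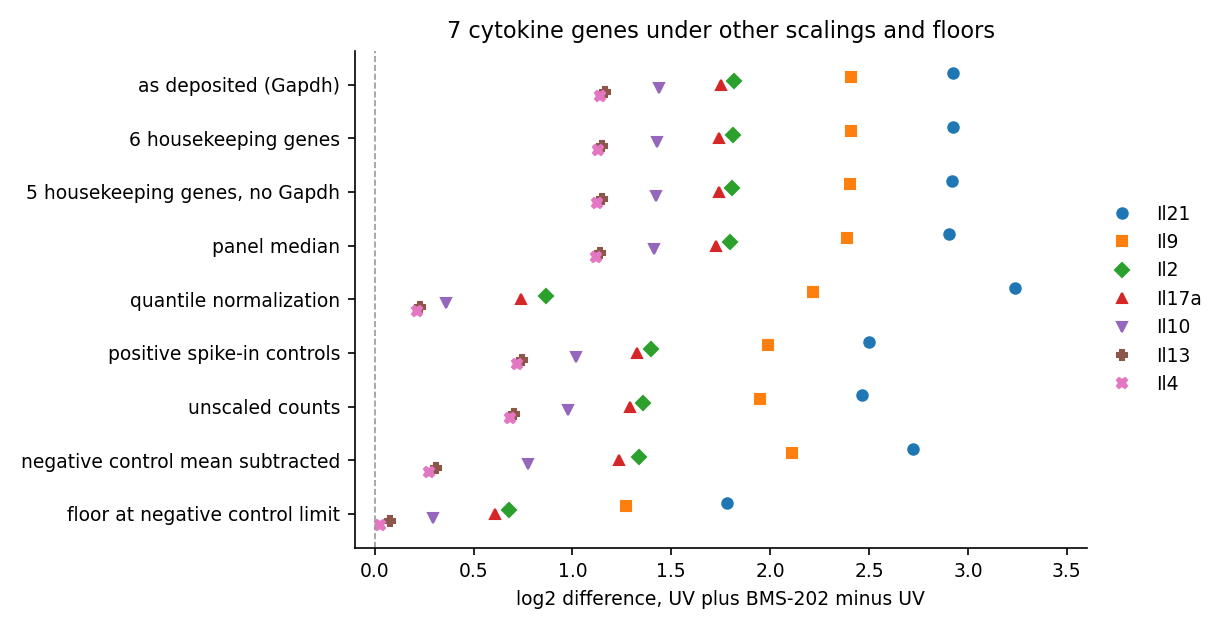
Log2 differences (UV plus BMS-202 minus UV) of the 7 members above the floor in all UV plus BMS-202 samples, on the horizontal axis, under the scalings and floors named at the left. All lie right of 0, with Il21 farthest, and Il4 and Il13 come to 0.03 and 0.08 with the floor at the negative control limit.

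Set among the other genes at the floor in UV skin, the members were not the highest. Of the 31 other genes above the floor in every UV plus BMS-202 sample, the means ran from 48.3 to 649 with a median of 91.0. Those of the 7 members ran from 45.3 to 159 with a median of 70.2. All 31 exceeded the detection limit in the 3 UV plus BMS-202 samples, and 5 members did (Il2, Il9, Il10, Il17a and Il21). The genes whose values over the 6 samples lay closest to the mean profile of the 7 members were the NADPH oxidase gene Nox1, the chemokine receptor gene Cxcr1, the chemokine genes Cxcl9 and Ccl17 and the lymphotoxin gene Ltb, with root mean square differences of 0.024 to 0.165 on the log2 scale. The 7 were taken because they were above the floor with BMS-202, and their UV values are all 20. This likeness therefore means only a UV value at or near 20 and a mean of 73.05 to 83.38 with BMS-202. Single members were spread more widely around that mean profile, from 45.3 to 159.

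**Figure D4:**
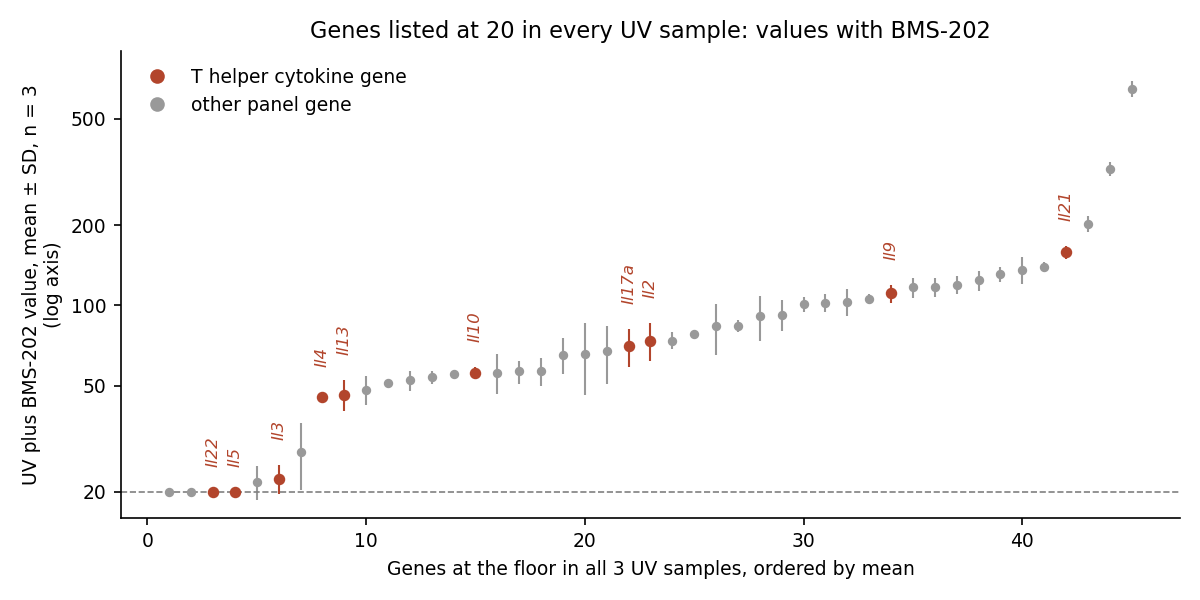
Values with BMS-202 (mean ± SD, n = 3, log axis) of the 45 genes listed at 20 in all UV samples, ordered by mean; T helper cytokine genes are red and named, other genes grey. The members run from Il5 and Il22 at 20 to Il21 at 159, and other genes reach 649.

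Other T cell cytokine genes were higher too. Of 9 listed genes 8 were on the panel and all 8 were called higher (median log2 1.63), while quantile normalization gave 6 of 8. UV skin had 5 of the 8 at 20 in every sample, and the highest UV mean among them was 64.9. At such UV levels most panel genes were called higher (38 of 45 at 20 and 47 of 63 from there up to 100). Ifng, the Th1 cytokine, read 128, 112 and 110 with BMS-202 and 20 in each UV sample, a mean of 117 ± 9.97 (SD, n = 3) and at least 5.85-fold the UV value (limma adjusted p = 2.98e-07). The death ligand gene Fasl averaged 56.6 with BMS-202, at least 2.83-fold the UV value of 20.

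The markers that define T cells as a lineage, Cd3d, Cd3e, Cd3g and Trac, are not on the panel, so the number of T cells cannot be read from these data. Of 15 listed T cell markers 7 were present, and all 7 were called higher (median log2 1.45), with 4 called under quantile normalization. Their UV means were 64.3 or less, in the same range of levels, and 4 of them (Cd40lg, Fasl, Lta and Ltb) are also among the 8 cytokine genes just given. Their summed value was 504 to 528 per UV plus BMS-202 sample and 180 to 216 per UV sample. Of these genes 0 were at 20 throughout the UV plus BMS-202 samples, and 4 were at 20 throughout the UV samples. Cd4, the co-receptor of helper T cells and also present on some myeloid cells, averaged 129 ± 6.91 with BMS-202 and 64.3 ± 10.5 with UV (SD, n = 3), and the groups did not overlap (limma adjusted p = 4.19e-04). Ccr4, a chemokine receptor of Th2 and skin-homing T cells, averaged 52.4 with BMS-202, at least 2.62-fold the UV value of 20. Liver plasma protein genes, a list chosen as foreign to skin, moved the same way: 7 of 8 were called higher and C8a was at 20 in all samples. The list was not wholly absent from UV skin. C6 and Masp2 averaged 45.8 and 42.0 there, above the scaled detection limits of 23.0 to 26.6. Their summed value was 954 to 996 with BMS-202 and 199 to 214 with UV, with 6 of the 8 at 20 in all UV samples. C9, of the terminal complement pathway, averaged 202 ± 13.7 (SD, n = 3) with BMS-202, at least 10.1-fold the UV value, and Crp, an acute phase gene, 139 ± 6.09, at least 6.95-fold. The part that whatever moved these lists had in the cytokine values was not tested.

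Cytokines that steer helper cell fate were called in both directions, 6 of 14 higher and 7 lower (median log2 -0.43). This was near the whole panel, with 91 of 248 endogenous genes higher and 132 lower (median -0.48). With the 6 housekeeping genes 9 of the 14 were higher and 2 lower, against 184 and 34 over the panel. Il12b, a subunit shared by IL-12 and IL-23, averaged 92.4 ± 12.1 with BMS-202 (SD, n = 3) and was at 20 in all UV samples, at least 4.62-fold higher. Il23a, the other IL-23 subunit, averaged 127 with BMS-202 and 20.3 with UV, where 2 of 3 values were at the floor. Ifna1 and Ifnb1, of the type I interferons, were at least 32.4-fold and 5.29-fold higher. These 4 genes were called higher under all 7 scalings. At their UV levels most panel genes were called higher as deposited (38 of 45 at 20 and 47 of 63 from there up to 100). Tgfb1, needed for both Th17 and regulatory fates, averaged 75.5 ± 9.68 with BMS-202 and 1002 ± 68.3 with UV (SD, n = 3) and was 13.3-fold lower, and it was called lower under all 7 scalings. All 26 panel genes with a UV mean above 1000 were called lower as deposited. Il6, the partner of TGF-beta in Th17 fate, was 1.73-fold lower (108 with BMS-202 and 187 with UV), but was called higher under both housekeeping scalings.

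Among transcription factors that act in helper T cells, Bcl6, Stat3 and Nfatc3 were called lower relative to Gapdh, whereas Nfatc3, of the NFAT family, was called higher under both housekeeping scalings. Bcl6, which directs the follicular helper fate, averaged 21.3 with BMS-202 and 267 with UV. Stat3, which transmits IL-6, IL-21 and IL-23 signals, averaged 428 with BMS-202 and 3171 with UV. Bcl6 and Stat3 were called lower under all 7 scalings. As deposited, 98 of 114 genes with a UV mean above 100 and up to 1000 were called lower, and 26 of 26 above 1000. Of 5 receptor genes 2 were called higher and 2 lower, beside 91 and 132 of all 248 endogenous genes. With the 6 housekeeping genes 4 of the 5 were higher and none lower, beside 184 and 34 over the panel. Il23r, of Th17 cells, averaged 65.9 ± 19.7 with BMS-202 (SD, n = 3) and was at 20 in each UV sample. Quantile normalization left it without a call. Il10rb, a subunit shared by the IL-10 and IL-22 receptors, averaged 140 with BMS-202 and 450 with UV, 3.22-fold lower, and Il6ra was 3.39-fold lower (137 with BMS-202 and 464 with UV). Both were called higher under both housekeeping scalings.

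Genes known to respond to these cytokines were called in both directions, as was the whole panel (91 of 248 endogenous genes higher and 132 lower). Of 6 Th1 targets, 3 were called higher, among them Cxcl9 (75.6 with BMS-202 and 20.3 with UV), and 3 lower, among them the transcription factor gene Irf1 (104 with BMS-202 and 426 with UV). With the 6 housekeeping genes 5 were higher, Irf1 included, and 1 lower, beside 184 and 34 of all 248 endogenous genes. Th2 targets had 4 of 8 higher and 2 lower, led by the chitinase-like gene Chi3l3 at 314 ± 7.29 with BMS-202 and 29.8 ± 3.98 with UV (SD, n = 3, 10.5-fold higher). All 8 were called higher under both housekeeping scalings, which called 184 (6 genes) and 202 (without Gapdh) of all 248 genes higher. With the spike-ins, unscaled counts and quantile normalization, 3 of the 8 were higher and 3 lower. Th17 targets had 2 of 9 higher and 6 lower (median log2 -1.93), but the median stood at 0.33 when scaled to 6 housekeeping genes and at 0.65 when Gapdh was left out of them. Over all endogenous genes these medians were 1.29 and 1.48. Mmp3, a stromal protease, averaged 238 with BMS-202 and 906 with UV, 3.81-fold lower, and was called higher under both housekeeping scalings. In this list Cxcl5, a neutrophil chemokine induced by IL-17, averaged 31.9 with BMS-202 and 371 with UV and was lower under all 7 scalings, while the growth factor gene Csf3 averaged 71.2 with BMS-202 and 24.1 with UV and was called higher under 6 of 7, all but quantile normalization. Cxcl9, Chi3l3 and Csf3 had UV means between 20 and 100, where 47 of 63 panel genes were called higher. Irf1, Mmp3 and Cxcl5 had UV means between 100 and 1000, where 98 of 114 were called lower. As deposited, Cxcl2 (UV mean 55.2, lower) and Ccl20 (UV mean 119, higher) went against their levels. Cxcl2 was called lower under 5 of 7 scalings, and its log2 difference was 0.49 with the 6 housekeeping genes. Ccl20 was called higher under 5 of 7, with log2 differences of -0.09 with the spike-ins and -0.11 with unscaled counts. The part of these cytokines in the target values was not tested.

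**Figure D5:**
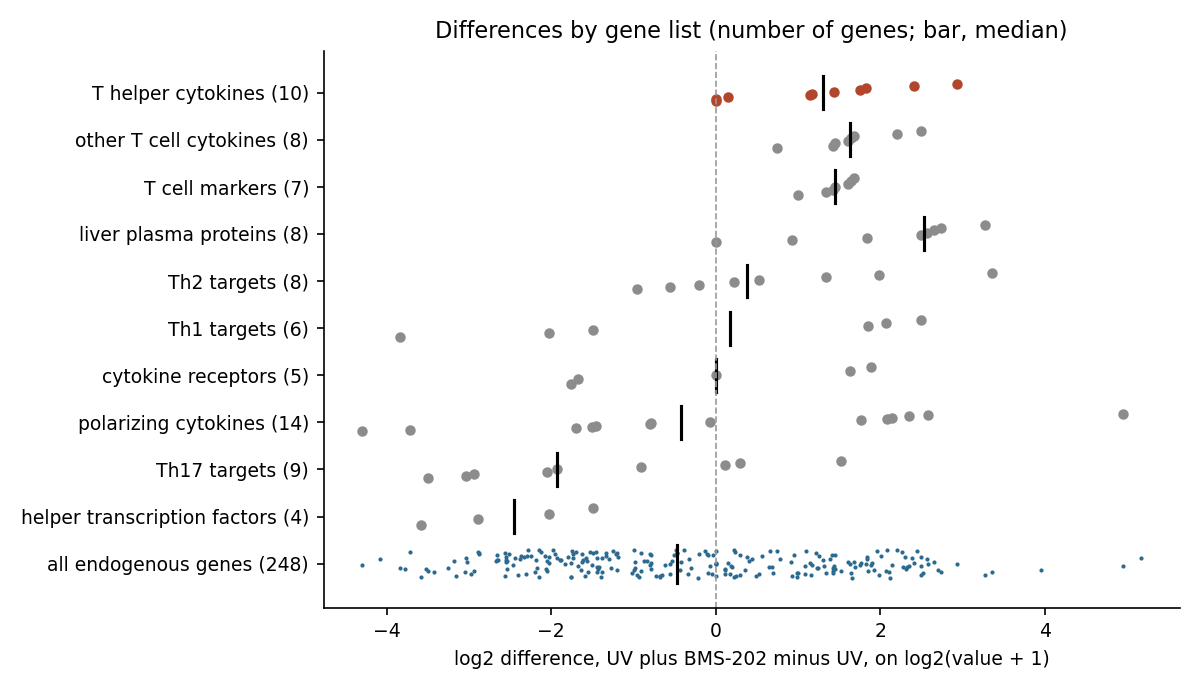
Log2 differences (UV plus BMS-202 minus UV, on log2(value + 1)) of single genes by list, with the median as a bar and the number of genes on the panel in brackets. T helper cytokines lie between 0 and 2.92, and the 248 endogenous genes at the bottom lie on both sides of 0 with a median of -0.48.

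Cells other than T cells can make several of the members, and their markers were thinly covered. No mast cell, basophil, natural killer, innate lymphoid or keratinocyte marker of the lists was on the panel. Ccr3, a receptor of eosinophils, was at least 5.99-fold higher (120 ± 9.32 with BMS-202, SD, n = 3, and 20 in UV skin). Macrophage and monocyte markers had 1 of 3 higher (Chi3l3) and 2 lower, beside 91 higher and 132 lower of all 248 endogenous genes. The summed values of these markers were 550 to 607 with BMS-202 and 1126 to 1187 with UV. With the 6 housekeeping genes 2 were higher and none lower, beside 184 and 34 over the panel. Mrc1, the mannose receptor, was 5.40-fold lower and was called lower under 5 of 7 scalings, with no call under the 2 housekeeping scalings. Antigen-presenting cell markers had 2 of 3 higher and 1 lower, with summed values of 337 to 369 with BMS-202 and 2019 to 2040 with UV. With the spike-ins, unscaled counts and quantile normalization, 1 of the 3 was higher and 1 lower. Cd40, the receptor of the helper T cell ligand CD40L, had a log2 difference of 0.99 (limma adjusted p = 2.68e-04). The class II gene H2-Eb1, the lower of these, averaged 134 with BMS-202 and 1904 with UV. Of the neutrophil markers, Cxcr1 was at least 3.92-fold higher and Cxcr2 was not called as deposited (limma adjusted p = 0.504), with summed values of 183 to 221 with BMS-202 and 119 to 145 with UV. Cxcr2 was called higher under 3 of 7 scalings. The part of any of these cells in the cytokine values was not tested.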

How the data were processed

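RNA from 6 skin samples, 3 per group by the labels' treatment field, was extracted on columns and assayed on the nCounter panel, per the labels' protocols. The deposited gene rows hold a signal scaled per sample: in each 100% of those above the floor were whole multiples of 1 step (tolerance 0.006 plus a millionth of the value), and the control rows are unscaled counts. No software or background step is named in the sources used here. Dividing by the step returned the counts used for detection. limma 3.58.1 (R 4.3.3, mean-variance trend) was fitted on log2(value + 1) to all endogenous genes without a filter on low values, because a filter would admit genes at the floor in UV skin only if higher, and p-values were Benjamini-Hochberg adjusted over the panel at 0.05. Folds against a group at the floor use 20 and are lower bounds relative to Gapdh, unless another scaling is named. The fit was checked on simulated data in which no gene started at the floor. That check therefore does not cover genes at the floor in UV skin, the members included. The members and lists were chosen with earlier results of these data known. Named genes were the members, Ifng, Il23a, Il12b, Il6, Tgfb1, Cd4, the 2 smallest p of each list, and the 5 closest profiles. Csf3, Il23r, C8a, Il22ra2, Nfatc3, Cxcl2, Ccl20, C6 and Masp2 were named after their values were seen. All 10 member symbols are in RefSeq (GRCm38.p6).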

Additional observations from a re-analysis of the deposited data

How the results depend on the processing

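Over the 10 members and the alternatives other than filters on low values, 173 of 180 results kept their side of the threshold and did not reverse. Much of this was fixed beforehand and does not measure stability. Il5 and Il22 are at 20 in all 6 samples, and leaving out a UV sample cannot move a difference whose UV values are all 20. Among the 173 are Il3 results that came to 0, with the spike-ins, negative control subtraction, unscaled counts and the raised floor. Il2, Il9, Il10, Il17a and Il21 were called higher in every alternative other than the filters. Il4 and Il13 lost their calls as given with the results. With quantile normalization 3 members, Il3, Il5 and Il22, were called lower, and Il3 turned to -0.25 on the log2 scale. Whole-panel calls moved to 184 higher and 34 lower with the 6 housekeeping genes and to 202 and 15 with the 5 other than Gapdh. A filter above 20 left 7 members tested and a filter above 50 left 5. A member passes these filters only through high values with BMS-202, so its call there says nothing about stability. Leaving out each sample in turn gave 7 or 8 members higher, 87 to 92 genes higher and 132 to 134 lower. Detection with BMS-202 ranged from 50% of member values (mean plus 3 SD) to 76.7% (above the floor). Same-numbered samples did not deviate together (correlations 0.020, -0.033 and 0.012), and the replicate block gave 7 members higher, 89 genes higher and 133 lower. Unscaled counts and the floor at the detection limit were chosen after seeing the data. A count model was not run, because the counts behind values at the floor are unknown.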

Other observations

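Some cytokines and receptors that act on T cells were chosen here after their values were seen. Tslp, a keratinocyte cytokine that favours Th2 responses through dendritic cells, read 133, 129 and 129 with BMS-202 and 28.7, 27.7 and 34.0 with UV (log2 2.08 ± 0.09 SE, limma adjusted p = 2.20e-06). Il7, which keeps resting T cells alive, averaged 91.4 ± 10.5 with BMS-202 and 26.1 ± 0.855 with UV (SD, n = 3, adjusted p = 4.18e-06). Il18rap, a subunit of the IL-18 receptor on Th1 cells, averaged 105.0 ± 10.1 with BMS-202 and 27.9 ± 6.36 with UV (adjusted p = 5.94e-05), while Il18 itself averaged 33.9 with BMS-202 and 679 with UV. Il15 was at 20 in all UV plus BMS-202 samples and averaged 35.5 ± 1.42 with UV, and was called lower under 5 of 7 scalings, but not under the 2 housekeeping scalings. Tslp, Il7 and Il18rap were called higher, and Il18 lower, under all 7 scalings. As deposited, these were the directions of most panel genes at such UV levels. Between UV means of 20 and 100, 47 of 63 genes were called higher and 8 lower, Il15 being among the 8. Between 100 and 1000, 98 of 114 were called lower.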
